A study of Mus musculus with 6 samples.

Results

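Krt1, Krt10, Krt77, Krtdap, Calm4, Calm5 and Mt4, a set of epidermal differentiation genes, were followed in keratinocytes of mouse skin. They are 7 of the 16158 genes in the deposited tables and were chosen by name. The cells were chosen by a gate: no UMI (unique molecular identifier, 1 captured RNA molecule) of the leukocyte gene Ptprc, and either Krt5 + Krt14 or Krt1 + Krt10 of at least 50 UMIs per 10000 UMIs of the cell. The gate held 6739 of the 20464 cells kept after filtering, out of 21178 deposited. Of these, 806 passed on Krt1 + Krt10 and are called suprabasal keratinocytes here, and the other 5933 are called Krt1/Krt10-low keratinocytes. The suprabasal class also holds cells that pass the Krt5 + Krt14 gate: 32.2% and 39.1% of it in the 2 NO_AG mice, 48% and 71.4% in the 2 AG mice, and 51.3% and 44.6% in the 2 AG_CPI mice. Its makeup thus differed between the groups compared, and the part of this in the results was not tested. All 7 genes passed the filter on low values in each of these populations.

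The single-cell libraries came from skin of 6 mice of the NINJA strain, 6 to 12 weeks old, with 2 mice in each of 3 groups. NINJA mice carry a neoantigen that can be switched on. In every group the sampled skin had been treated with 4-OH-Tam. Per the labels, each mouse had been checked for visible skin pathology and for P14 CD8 T cells in the skin. The groups are NO_AG (antigen off), AG (antigen on) and AG_CPI (antigen on with CPI), and a mouse is named by its group and replicate number. The labels do not give the sex, the dose of any agent or the day of sampling.

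The epidermis is renewed from a basal layer, marked by keratins Krt5 and Krt14, whose daughter cells move outward, switch to Krt1 and Krt10, and end as the dead cells of the cornified barrier. Krt1 and Krt10 pair as the type II and type I keratins of the suprabasal filaments, and Krt77 is a further type II keratin of that family. Krtdap is a small secreted protein of differentiating keratinocytes, Calm4 and Calm5 are calmodulin-like calcium-binding proteins of skin, and Mt4 is the metallothionein of stratified epithelia.

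By GENCODE M21 on GRCm38 (mm10), Krt1 lies at chr15:101845426-101850794 and Krt77 at chr15:101858731-101869705, both on the minus strand with 7936 bases between them. Krt10 lies on the minus strand at chr11:99385254-99389364, Krtdap on the plus strand at chr7:30787896-30791097 and Mt4 on the plus strand at chr8:94137197-94139031. Calm4 (chr13:3837757-3838673) and Calm5 (chr13:3854173-3854761) are plus-strand neighbours with 15499 bases between them. This last pair is shown first. In suprabasal cells the levels of its members lay on opposite sides of the controls, while their upstream sequences hardly differ apart from a shift against the starts. Each line ends at the base before the RefSeq start (GRCm38.p6), and the capital is the only mismatch of the aligned part. The end of the Calm5 line aligns past the Calm4 start and has no partner in the Calm4 line.
Calm4, chr13:3837551-3837756: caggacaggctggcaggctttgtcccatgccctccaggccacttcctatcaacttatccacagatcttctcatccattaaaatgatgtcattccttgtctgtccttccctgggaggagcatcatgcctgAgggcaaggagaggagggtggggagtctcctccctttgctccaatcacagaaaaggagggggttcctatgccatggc
Calm5, chr13:3853923-3854172: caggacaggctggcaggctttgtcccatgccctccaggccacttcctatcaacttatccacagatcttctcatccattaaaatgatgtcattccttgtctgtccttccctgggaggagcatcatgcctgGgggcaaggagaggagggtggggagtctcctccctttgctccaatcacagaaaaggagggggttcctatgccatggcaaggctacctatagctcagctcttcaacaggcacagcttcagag

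Across the RefSeq windows of this pair, 256 bases aligned with 1 mismatch and 0 gaps, an identity of 99.61%. Bases 45 to 300 of the Calm4 window aligned with bases 1 to 256 of the Calm5 window. The same letters thus lie at different distances from the start of each gene. The transcripts themselves share less: 4.72% of the 50-base windows of Calm4 occur in Calm5, 7.59% of those of Calm5 occur in Calm4, and no 90-base window is shared. Among the first 100 windows of 50 bases, near the 5' end that the libraries read, 20% of those of Calm4 and 25% of those of Calm5 are shared. How reads that match both were counted is not given in the sources used here, so a part of the reads at the 5' end could have been assigned to either gene or dropped.

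RefSeq promoter windows were at hand for 6 of the 7 genes, Krt1 being the other one. The last 110 bases before the start are shown for Krt10 and for the members whose UMIs are compared with those of Krt10. Capitals mark 3 motifs searched on both strands, none of which overlapped another here. The TATA box was searched as TATAAA. The AP-1 site was searched as TGANTCA. The CACCC box was searched by its own letters.
Krt10, chr11:99389365-99389474, minus strand: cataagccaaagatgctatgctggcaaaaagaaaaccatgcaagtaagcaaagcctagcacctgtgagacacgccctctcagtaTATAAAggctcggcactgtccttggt
Krt77, chr15:101869706-101869815, minus strand: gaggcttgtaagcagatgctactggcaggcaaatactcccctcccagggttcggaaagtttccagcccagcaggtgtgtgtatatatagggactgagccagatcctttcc
Krtdap, chr7:30787795-30787904, plus strand: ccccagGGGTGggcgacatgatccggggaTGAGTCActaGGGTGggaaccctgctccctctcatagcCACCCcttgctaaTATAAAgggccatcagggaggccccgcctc
Mt4, chr8:94137094-94137203, plus strand: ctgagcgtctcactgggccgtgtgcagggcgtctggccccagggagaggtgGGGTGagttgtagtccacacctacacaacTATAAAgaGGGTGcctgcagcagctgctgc

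TATAAA begins 26 bases before the start of Krt10 and 30 before those of Krtdap and Mt4, and TGAGTCA begins 81 bases before that of Krtdap. In all 32851 RefSeq windows of 250 bases before a start, 12.4% hold TATAAA, 6.75% hold TGANTCA and 52% hold CACCC. These matches describe the letters only.

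Some libraries differed from the others. In AG_CPI 1, 15.4% of gated keratinocytes had a UMI of the Y-linked gene Ddx3y and 1.85% one of Xist; in the other 5 mice no gated keratinocyte had Ddx3y and 65.5% to 89.4% had Xist. In AG 2 the gated keratinocytes were shallow, with a median of 2537 UMIs against 5313, 5914 and 6890 in NO_AG 1, NO_AG 2 and AG 1 and 3467 and 3434 in AG_CPI, and its T cells held 11.4 Krt14 UMIs per 10000 against 1.17 to 3.98 in the other mice. Mitochondrial UMIs of gated keratinocytes were 4.25% and 4.36% in NO_AG, 4.24% in AG 1 and 6.90% in AG 2, and 6.21% and 5.82% in AG_CPI. Sex, mitochondrial share and free RNA were not tested as sources of the differences below, and depth only by thinning cells to an equal number of UMIs. Across libraries, 255 barcodes occurred more than once. Because cells are not replicates, each value below is a mean over the cells of 1 mouse, and each test compares mice. Endothelial and fibroblast genes were near 0 in suprabasal cells (summed levels of at most 0.0267 and 0.287 per 10000, with 4 to 6 of 6 endothelial and 2 to 7 of 7 fibroblast genes at 0). T cell genes summed to 0.417 to 1.94 there in NO_AG and 1.53 to 6.63 in the other mice, myeloid genes to 0.223 and 0.572 in NO_AG and 0.10 to 3.90 in the others, and their part in the results was not tested.

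The share of gated keratinocytes past the Krt1 + Krt10 gate was 11.2% (233 of 2089 cells; Wilson 95% interval 9.87% to 12.6%) in NO_AG 1 and 15.5% (266 of 1721; 13.8% to 17.2%) in NO_AG 2. It was 18.1% (175 of 969; 15.8% to 20.6%) in AG 1 but 1.78% (28 of 1573; 1.23% to 2.56%) in AG 2. In AG_CPI it was 24.1% (39 of 162; 18.1% to 31.2%) and 28.9% (65 of 225; 23.4% to 35.1%). Both AG_CPI mice thus lay above the other 4, and the AG mice lay on either side of NO_AG. The AG_CPI libraries also yielded fewer gated keratinocytes, 9.46% and 10.4% of their kept cells against 43.8% and 43.6% in NO_AG and 28.6% and 35.1% in the AG mice, and the part of this in the share was not tested. The intervals cover counting error only, and in a share of cells fewer suprabasal cells and less RNA per cell cannot be told apart. AG_CPI exceeded NO_AG by 13.2 percentage points and AG by 16.6. With any 1 mouse left out, the excess over AG ran from 8.42 to 24.7 points. These differences are descriptions: Krt1 + Krt10 also helped to choose the cells counted, and a two-sided exact permutation test of 2 against 2 mice cannot give a p below 0.33. AG was below NO_AG by a difference of -3.38 points, which became 4.75 points without AG 2. Leaving out cells with Krt17 + Krt79 + Krt6a of at least 10 per 10000, which mark follicle and stressed keratinocytes, narrowed the AG_CPI excess over NO_AG to 4.2 points. The order of the mice was lost there: the share was 17.1% and 19.7% in NO_AG, 29.3% in AG 1, 6.82% in AG 2, and 19.1% and 26.2% in AG_CPI. Cells just inside the gate (50 to 75 per 10000) numbered 8 to 55 per mouse and those just outside (25 to 50) 7 to 103. In AG 2 they were 8 and 103, and with the gate at 25 its share was 7.93%, still the lowest of the 6 mice but no longer near 1.78%.

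**Figure D1:**
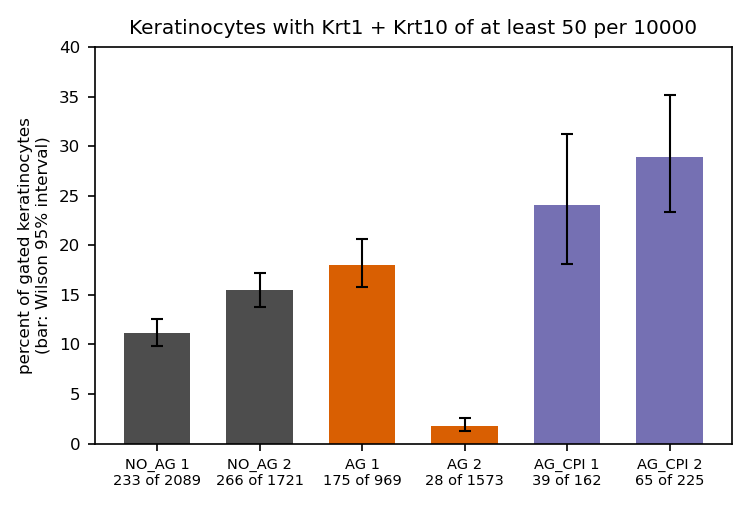
Share of gated keratinocytes with Krt1 + Krt10 of at least 50 UMIs per 10000 in each of the 6 mice, in percent, with Wilson 95% intervals; the numbers of cells stand under the bars. Both AG_CPI bars (24.1% and 28.9%) are above the rest, and AG 2 is lowest at 1.78%.

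The type II keratin Krt77 was the member with the clearest difference between groups. In suprabasal keratinocytes its level was 35.2 and 47.2 UMIs per 10000 in NO_AG 1 and 2, 31.4 and 2.71 in AG 1 and 2, and 1.94 and 0.315 in AG_CPI 1 and 2. Both AG_CPI mice were below all 4 others; AG 1 lay near NO_AG and AG 2 near AG_CPI. The 3 mice with low Krt77 were also those with shallow suprabasal cells: the median was 7190 and 5734.5 UMIs in NO_AG, 7325 in AG 1, 3275.5 in AG 2, and 2758 and 2284 in AG_CPI. The mitochondrial share of gated keratinocytes was likewise higher in these 3 mice, and its part in the result was not tested. Depth was tested only by thinning every cell to an equal number of UMIs, for the shares of cells and for the fit. In the thinned fit the Krt77 difference between AG_CPI and NO_AG given below kept its direction and its call. Summed follicle genes in suprabasal cells were 22.1 and 29.2 UMIs per 10000 in NO_AG, 68.7 and 75.6 in the AG mice, and 83.3 and 157 in AG_CPI, with 0 to 8 of the 17 genes at 0. They were thus higher in all 4 antigen-on mice, AG 1 included, and their part in the result was not tested. Krt77 fell in AG_CPI against NO_AG, to 0.0220 of the NO_AG level (log2 fold change -5.51, SE 0.955, limma-trend over 7913 genes, Benjamini-Hochberg adjusted p = 0.0392, on the log2(value + 0.1) scale). It was the only one of the 5 members not used by the gate to pass in this comparison, where 0.493% of all tested genes passed and 0.164% passed as lower. The difference kept its direction without AG_CPI 1 (-6.63, adjusted p = 0.222) and without AG_CPI 2 (-4.39, adjusted p = 0.252), but did not pass with 1 mouse in the group.

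The remaining comparisons of Krt77 did not pass. In suprabasal cells the log2 difference was -2.11 for AG against NO_AG (SE 0.955, limma adjusted p = 0.915) and -3.40 for AG_CPI against AG (SE 0.955, adjusted p = 0.512). Both AG mice were lower than both NO_AG mice there, but Krt77 in AG 2 rests on 30 UMIs from 28 cells, against 3623 in AG 1. Without AG 2 the Krt77 difference between AG and NO_AG was -0.29. With any 1 mouse left out, that between AG_CPI and AG ran from -5.21 to -1.59. The share of suprabasal cells with a Krt77 UMI was 90.6% and 94.4% in NO_AG, 80% and 17.9% in the AG mice, and 20.5% and 12.3% in AG_CPI. With every cell thinned to 1500 UMIs these shares were 78.1%, 86.1%, 66.9%, 17.9%, 15.4% and 7.69% in the same order, so the NO_AG mice and AG 1 were also above the other 3 mice at equal depth. In T cells, which should lack Krt77, the thinned share was 2.92% and 6.52% in NO_AG, 1.5% and 1.12% in the AG mice, and 0% and 0.0803% in AG_CPI.

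The pair Krt1 and Krt10 chose the suprabasal cells, so their levels there are partly set by the gate and are given as a description. Krt1 stood at 88.9 and 61.9 UMIs per 10000 in NO_AG, 115 and 137 in the AG mice, and 97.3 and 116 in AG_CPI; all 4 antigen-on mice lay above both NO_AG mice. Krt10 stood at 112 and 103 in NO_AG, 134 and 52.2 in the AG mice, and 96.9 and 76.4 in AG_CPI, where both mice lay below NO_AG and the AG mice lay on either side. Summed Krt1 UMIs per Krt10 UMI were therefore 0.761 and 0.581 in NO_AG, 0.829 and 1.92 in the AG mice, and 1.02 and 1.39 in AG_CPI. Krt77 UMIs per Krt10 UMI ran the other way, at 0.306 and 0.447 in NO_AG, 0.203 and 0.0375 in the AG mice, and 0.0147 and 0.00407 in AG_CPI. Neither ratio of any antigen-on mouse lay within the range of the NO_AG mice. The 2 antigen-on groups share the NO_AG mice as controls, so their comparisons are not independent.

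Over all gated keratinocytes, Krt1 was 11.2 and 10.95 in NO_AG, 22.1 and 6.00 in the AG mice, and 26.3 and 34.9 in AG_CPI, a log2 difference of 1.52 between AG_CPI and NO_AG (SE 0.552). Krt10 was 13.9 and 18.2, 25.7 and 3.15, and 26.0 and 23.6 in the same order, with a log2 difference of 0.72 (SE 0.835). Both helped to choose these cells too, so these values are descriptions. AG 2 was the lowest and AG 1 above NO_AG for both keratins, as for the share past the gate. Among all gated keratinocytes, 0 of the 5 members that the gate did not use passed in any comparison, while of the 8310 genes tested 0.505% passed between AG and NO_AG, 0% between AG_CPI and AG, and 0.71% between AG_CPI and NO_AG. The 0 genes of AG_CPI against AG compare with 765 at an unadjusted limma p under 0.05. When the 4 mice of AG_CPI and NO_AG were fitted alone, 4 of these 5 members passed by limma: Krt77 (adjusted p = 0.0317), Krtdap (0.0299), Calm4 (0.0216) and Calm5 (0.0129). That fit called 339 of 7985 genes (4.25%). The same 4 passed in this comparison without AG 1, where 296 of 8235 genes passed (3.59%), and without AG 2, where 330 of 8088 did (4.08%). All of these fits share the same 4 mice of AG_CPI and NO_AG, so they are not repeated support. With group as the only term, AG mice reach this difference only through scaling. Its size was thus bound to hardly move, and mainly the error estimate could change.

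Krtdap, the secreted differentiation protein, was described separately on each side of the Krt1 + Krt10 gate. In suprabasal keratinocytes it was 100.3 and 98.2 UMIs per 10000 in NO_AG, 104 and 103 in the AG mice, and 64.2 and 84.0 in AG_CPI. The AG_CPI mice lay below the other 4, by a log2 difference of -0.47 from NO_AG (SE 0.231, limma adjusted p = 0.497). In Krt1/Krt10-low keratinocytes it was 3.12 and 3.29 in NO_AG, 9.92 and 23.2 in the AG mice, and 18.2 and 11.4 in AG_CPI. Here all 4 antigen-on mice lay above both NO_AG mice. The log2 differences from NO_AG were 2.29 for AG (SE 0.387, limma adjusted p = 0.0885) and 2.22 for AG_CPI (SE 0.387, adjusted p = 0.0831), so neither passed at 0.05. They are the largest positive differences of any member in that population. Without AG 2 the Krtdap difference of AG was 1.72 (adjusted p = 0.299 by limma), and without AG_CPI 1 that of AG_CPI was 1.85, the lowest values with any 1 mouse left out; without AG 2 that of AG_CPI passed (2.22, adjusted p = 0.0458 by limma, beside 1.05% of all genes). Without AG 1 the AG difference was 2.85 and passed (adjusted p = 0.0336 by limma, beside 0.818% of all genes). With summed UMIs both passed by limma, at 2.38 for AG (adjusted p = 0.0216, beside 0.771% of all genes) and 2.22 for AG_CPI (adjusted p = 0.0291, beside 1.11%). Over all gated keratinocytes Krtdap was 14.0 and 18.0 in NO_AG, 26.9 and 24.6 in the AG mice, and 29.3 and 32.4 in AG_CPI, with each group above the one before it; the log2 difference of AG_CPI from NO_AG was 1.04 (SE 0.188, limma adjusted p = 0.0601). Without the Krt17, Krt79 or Krt6a cells it was 0.34 (adjusted p = 0.782 by limma), and that of AG from NO_AG was 0.20.

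Krtdap in T cells of the same libraries, where the gene should be silent, was 1.22 and 1.48 in NO_AG, 0.781 and 3.18 in the AG mice, and 0.312 and 0.770 in AG_CPI. The levels in Krt1/Krt10-low keratinocytes exceeded these in every mouse, although in AG 2 the T cell level was the highest of the 6. Other leukocytes held 2.61 and 4.49 Krtdap UMIs per 10000 in NO_AG, 1.67 and 5.31 in the AG mice, and 0.691 and 0.978 in AG_CPI. The level in low keratinocytes was near this background in NO_AG (3.12 against 2.61 in NO_AG 1, 3.29 against 4.49 in NO_AG 2) and above it in the 4 antigen-on mice. The share of low keratinocytes with a Krtdap UMI was 26.5% and 28.7% in NO_AG, 47.2% and 83.6% in the AG mice, and 71.5% and 60.6% in AG_CPI. After thinning to 1500 UMIs it was 16.9% and 18.1%, 33% and 76.8%, and 61.0% and 48.1%, against 2.93% to 17.1% in T cells and 3.33% to 20.8% in other leukocytes. When the gate used Krt5 + Krt14 alone, so that no member chose the cells, Krtdap rose in AG (log2 fold change 1.83, adjusted p = 0.0213) and in AG_CPI (2.04, adjusted p = 0.0211) against NO_AG by limma. Krt1 rose there in AG_CPI against NO_AG (2.17, limma adjusted p = 0.0378). With this gate 0.491% of genes passed between AG and NO_AG and 0.527% between AG_CPI and NO_AG. Without the Krt17, Krt79 or Krt6a cells the difference in low keratinocytes was 1.82 for AG (adjusted p = 0.272) and 2.27 for AG_CPI (adjusted p = 0.0800). Summed stress keratinocyte genes were 1.58 and 2.15 per 10000 in low cells of NO_AG, 4.55 and 30.3 in the AG mice, and 13.3 and 7.22 in AG_CPI, highest in the mouse with the highest Krtdap; their part in the result was not tested.

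**Figure D2:**
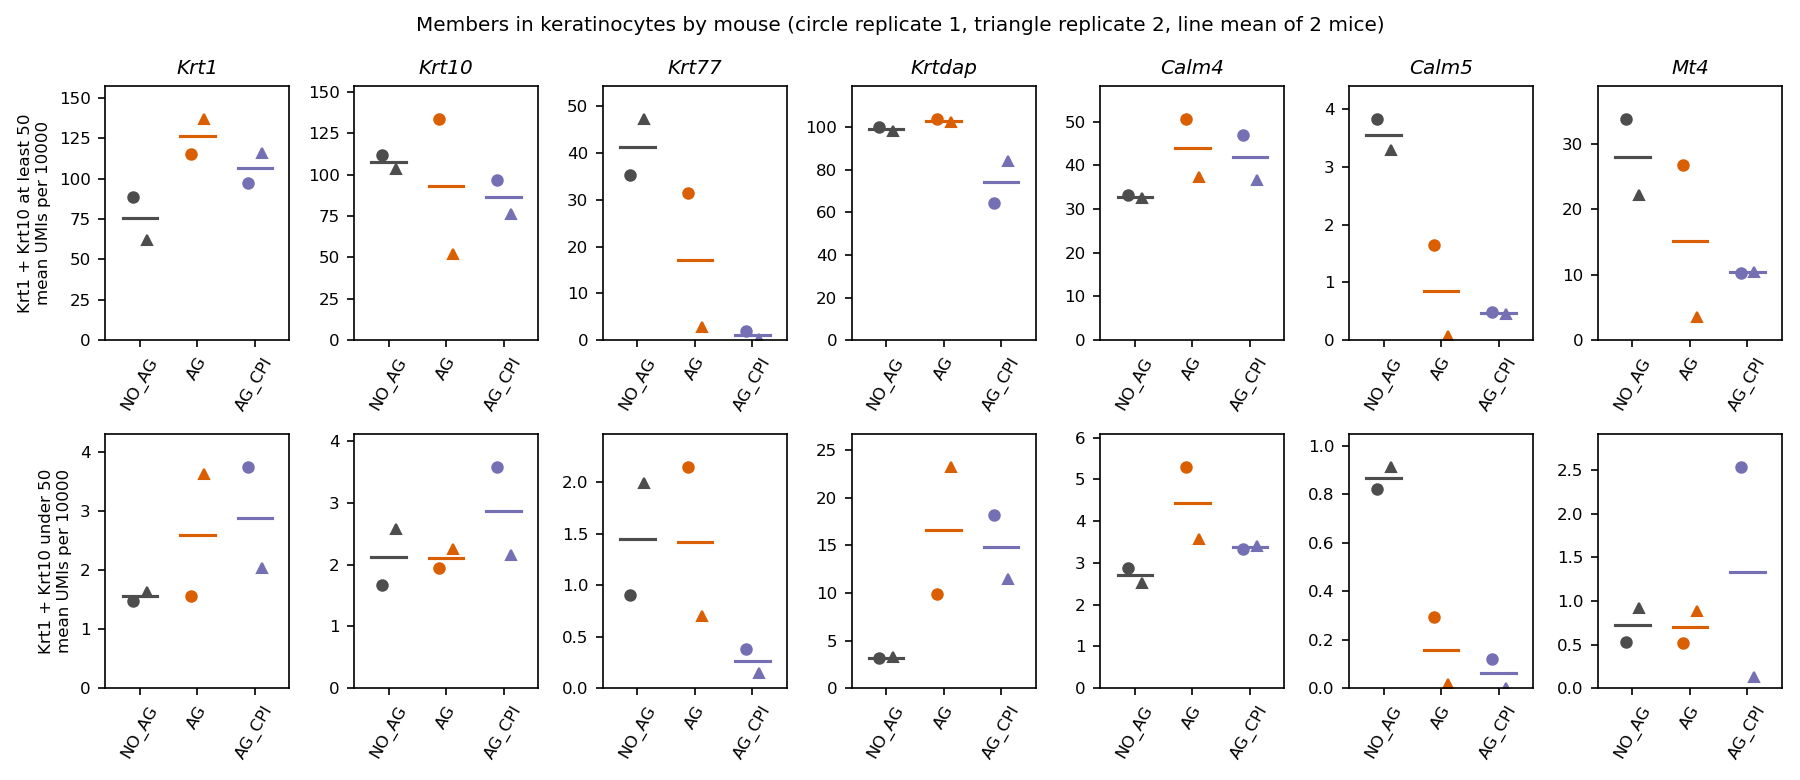
Mean UMIs per 10000 of each member in suprabasal (upper row) and Krt1/Krt10-low (lower row) keratinocytes, with 1 point per mouse (circle replicate 1, triangle replicate 2), a line at the mean of 2 mice, and a separate linear axis from 0 in each panel. Krt77 in the suprabasal row is at 35.2 and 47.2 in NO_AG and at 1.94 and 0.315 in AG_CPI, and Krtdap in the lower row is at 3.12 and 3.29 in NO_AG and from 9.92 to 23.2 in the other mice.

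In suprabasal keratinocytes the calmodulin-like genes Calm4 and Calm5 lay on opposite sides of NO_AG in the antigen-on mice. Over all gated keratinocytes the AG and NO_AG mice overlapped in Calm4 (AG mean 8.82, SD 6.56, NO_AG mean 6.71, SD 0.637). Calm4 in suprabasal keratinocytes was 33.1 and 32.5 UMIs per 10000 in NO_AG, 50.6 and 37.3 in the AG mice, and 46.9 and 36.7 in AG_CPI, and all 4 antigen-on mice lay above NO_AG. Calm5 was 3.83 and 3.29 in NO_AG, 1.65 and 0.0661 in the AG mice, and 0.488 and 0.447 in AG_CPI, and all 4 lay below NO_AG. Calm5 UMIs per Calm4 UMI were 0.116 and 0.0936 in NO_AG, 0.0291 and 0.00239 in the AG mice, and 0.0113 and 0.0188 in AG_CPI. The AG 2 value rests on 1 Calm5 UMI and the AG_CPI values on 9 and 20, against 668 and 651 in NO_AG.

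Neither gene passed the main test in a comparison. Calm5 differed from NO_AG in suprabasal cells by -2.73 (log2) in AG and by -2.72 in AG_CPI (SE 0.817 for both, limma adjusted p = 0.568 and 0.253). Over all gated keratinocytes the Calm5 differences were -2.17 and -2.24 (SE 0.681, limma adjusted p = 0.440 and 0.178). Those of Calm4 were 0.24 and 1.07 (SE 0.493, limma adjusted p = 0.950 and 0.329). With 1 mouse left out, the gated Calm5 difference of AG ran from -3.42 (without AG 1) to -0.93. Calm5 in suprabasal cells passed for AG_CPI against NO_AG when the 4 mice of these groups were fitted alone with limma (adjusted p = 0.00628), a fit in which 0.713% of genes passed. Without AG 2, the Calm5 difference of AG from NO_AG in suprabasal cells was -0.98; without AG 1 it was -4.50 and passed (adjusted p = 0.00587 by limma, beside 0.827% of all genes), so its size rested on which AG mouse was used. In contrast, with any 1 mouse left out that of AG_CPI stayed between -2.86 and -2.58. In Krt1/Krt10-low cells Calm5 was 0.822 and 0.912 in NO_AG, 0.294 and 0.0194 in the AG mice, and 0.122 in AG_CPI 1. It had no UMI in 160 such cells of AG_CPI 2, which allows a share of cells with a Calm5 UMI of up to 1.88% but sets no limit on the share expressing it. T cells of NO_AG held 0.0596 and 0.0787 Calm5 UMIs per 10000 and those of the other mice 0.00488 to 0.0122, so the Calm5 level in low cells of AG 2 was close to this background.

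**Figure D3:**
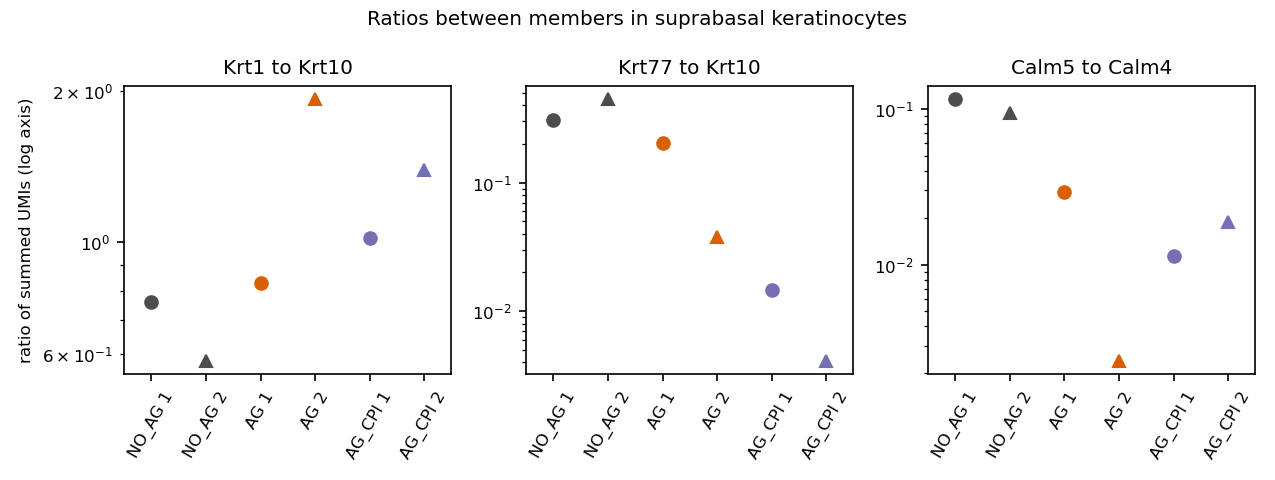
Ratios of summed UMIs between members in suprabasal keratinocytes of each mouse, on log axes (circle replicate 1, triangle replicate 2). Krt77 to Krt10 runs from 0.306 and 0.447 in NO_AG to 0.0147 and 0.00407 in AG_CPI, and Calm5 to Calm4 from 0.116 and 0.0936 to 0.0113 and 0.0188.

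Calml3, a calmodulin-like gene of epithelia, rose in suprabasal cells in AG_CPI against NO_AG, from 0.299 and 0.615 per 10000 to 9.62 and 8.51 (log2 fold change 4.06, SE 0.336, limma adjusted p = 0.000418). In AG it was 2.47 and 1.68. Calm2 was 3.66 and 4.99 in NO_AG and 1.71 and 1.70 in AG_CPI (log2 difference -1.31, limma adjusted p = 0.0571).

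Mt4 in suprabasal keratinocytes was 33.8 and 22.2 UMIs per 10000 in NO_AG, 26.8 and 3.54 in the AG mice, and 10.3 and 10.5 in AG_CPI. The AG_CPI mice lay below NO_AG, AG 1 lay between the NO_AG mice and AG 2 was the lowest of all; the log2 difference of AG_CPI from NO_AG was -1.43 (SE 0.704, limma adjusted p = 0.50). That of AG was -1.46 (SE 0.704, adjusted p = 0.915); it became 0.057 without AG 2 and -2.97 without AG 1, where it passed (adjusted p = 0.0148 by limma). The broadly expressed metallothioneins Mt1 and Mt2 did not pass in this comparison either: Mt1 was 12.1 and 11.8 in NO_AG against 5.41 and 6.91 in AG_CPI (limma adjusted p = 0.155), and Mt2 was 3.21 and 3.66 against 0.482 and 1.27 (adjusted p = 0.0921). In Krt1/Krt10-low cells Mt4 was below 1 per 10000 in 5 mice and 2.53 in AG_CPI 1.

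Counted over members on the TMM-scaled means of the fit, the AG_CPI and NO_AG mice did not overlap in suprabasal cells for any of the 5 members that the gate did not use, with Calm4 higher and Krt77, Krtdap, Calm5 and Mt4 lower. Krt1 and Krt10 were used to choose the cells of all 3 populations and are left out of these counts. Of all 7913 genes, 48.3% did not overlap in that comparison, 19.2% higher and 29.1% lower. For AG against NO_AG, 3 of the 5 did not overlap (Calm4 higher, Krt77 and Calm5 lower; in plain means Krtdap was higher too), beside 39.2% of all genes (17.1% higher, 22.1% lower). For AG_CPI against AG 2 of the 5 (Krt77 and Krtdap, both lower) stood beside 33.3%, of which the lower genes were 17.9%. The limma test called 0.152% of genes for AG against NO_AG and 0.0126% for AG_CPI against AG in suprabasal cells, and no member. In low cells it called 0.452% of 8400 genes between AG and NO_AG, 0% between AG_CPI and AG (682 genes at an unadjusted p under 0.05) and 0.238% between AG_CPI and NO_AG, again with no member.

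On the same scaled means, in Krt1/Krt10-low cells AG lay apart from NO_AG for 3 of the 5 members, with Krtdap and Calm4 higher and Calm5 lower, beside 44.6% of all genes (22.1% higher, 22.5% lower). AG_CPI lay apart from NO_AG for 4 of the 5, with Krtdap and Calm4 higher and Krt77 and Calm5 lower, beside 50.5% (22.4% higher, 28.1% lower). It lay apart from AG for Krt77 and Calm4, both lower, beside 31.3% (17.7% lower). Over all gated keratinocytes AG lay apart from NO_AG for Krtdap (higher) and Calm5 (lower), beside 44.2% (22% higher, 22.1% lower). AG_CPI lay apart from NO_AG for 4 of the 5, with Krtdap and Calm4 higher and Krt77 and Calm5 lower, beside 54.3% (24.5% higher, 29.8% lower). It lay apart from AG for Krtdap alone of the 5, which was higher, beside 32.4% (14.3% higher). Calm5 was the only one of the 5 on the lower side of NO_AG for both antigen-on groups in all 3 populations. Without the Krt17, Krt79 or Krt6a cells, Calm5 fell in low cells in AG_CPI against NO_AG (log2 fold change -3.86, limma adjusted p = 0.0337, where 0.473% of genes passed).

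**Figure D4:**
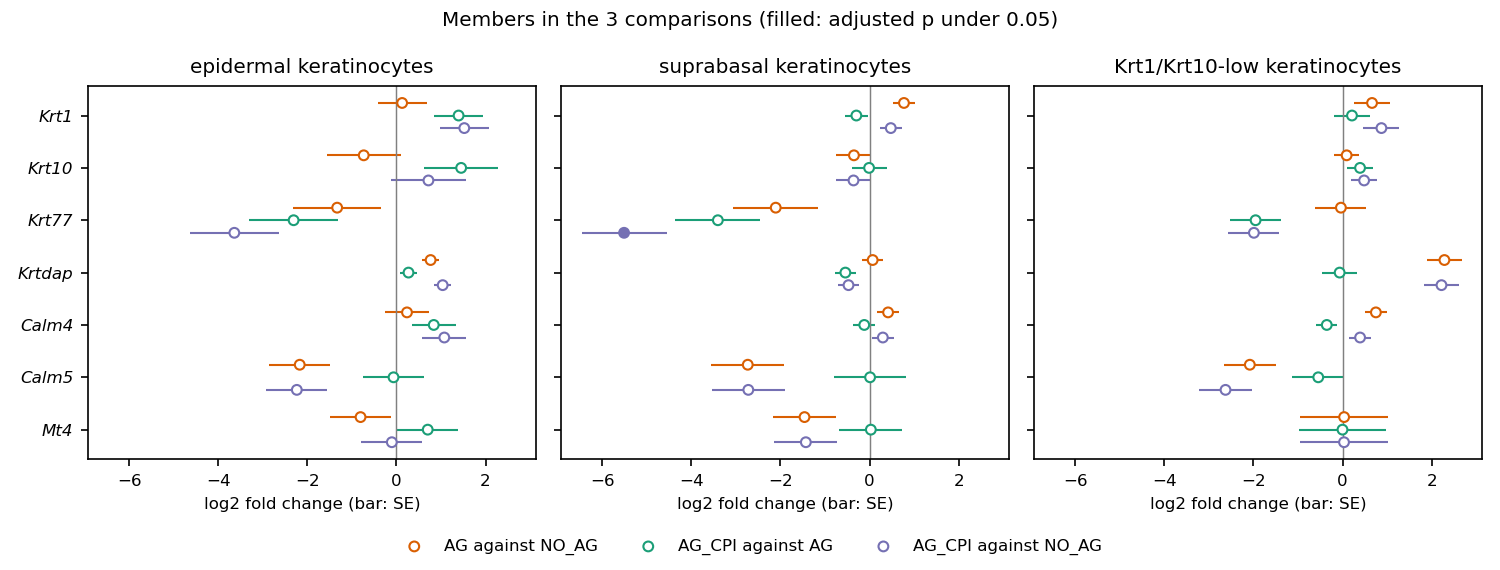
Log2 fold change of each member, with its SE, in the 3 comparisons (colours) and in all gated, suprabasal and Krt1/Krt10-low keratinocytes (panels). The only filled point, which passed at an adjusted p of 0.05, is Krt77 at -5.51 for AG_CPI against NO_AG in suprabasal cells.

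To follow the members through the keratin switch, gated keratinocytes were divided by Krt1 + Krt10 as a share of Krt1 + Krt10 + Krt5 + Krt14, with limits at 10%, 50% and 90%. Krtdap in the class under 10% was 2.23 and 1.59 UMIs per 10000 in NO_AG, 8.85 and 21.8 in the AG mice, and 15.2 and 8.74 in AG_CPI. At 90% or more it was 125 and 143 in NO_AG, 154 and 206 in the AG mice, and 80.7 and 100.4 in AG_CPI. Thus the antigen-on mice were higher than NO_AG in Krtdap at the basal end, while at the far end AG lay above and AG_CPI below NO_AG. Calm4 at 90% or more was 42.2 and 46.5 in NO_AG and 61.8 to 88.3 in the other 4 mice.

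Krt77 at 90% or more was 45.5 and 69.0 in NO_AG, 55.5 and 4.23 in the AG mice, and 1.59 and 0.654 in AG_CPI. Low Krt77 was therefore also found in AG_CPI cells whose keratins had switched almost fully. Calm5 in that class was 4.16 and 3.84 in NO_AG, 2.16 and 0.264 in the AG mice, and 1.12 and 0.997 in AG_CPI. These classes held 140 and 126 cells in the NO_AG mice, 78 in AG 1, 7 in AG 2, and 17 and 10 in AG_CPI, so the last 3 means are imprecise.

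**Figure D5:**
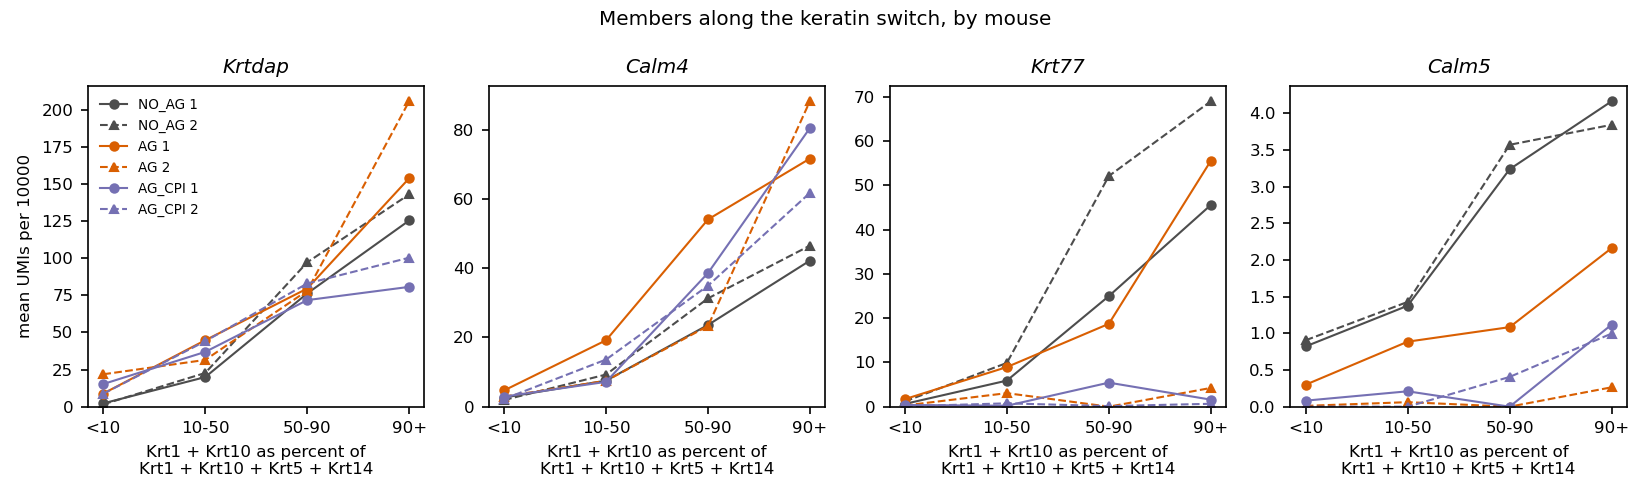
Mean UMIs per 10000 of Krtdap, Calm4, Krt77 and Calm5 in 4 classes of gated keratinocytes by Krt1 + Krt10 as a percent of the 4 keratins, 1 line per mouse, linear axes from 0. Krt77 climbs to 45.5 and 69.0 in NO_AG and ends at 1.59 and 0.654 in AG_CPI, where AG_CPI 1 reaches 5.43 in the class before, while Krtdap climbs in every mouse.

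Within mice, the members varied together across gated keratinocytes to different degrees. On the deposited log scale the mean Pearson r over 6 mice was 0.776 for Krt1 with Krt10, 0.683 for Krt1 with Krtdap, 0.675 for Krt1 with Calm4 and 0.448 for Krt1 with Krt77. Calm5 had the lowest values, from 0.207 with Krtdap to 0.360 with Mt4. The genes most like the mean of the members, of 7753 compared, were Fam25c (mean r 0.627), the fatty acid-binding protein Fabp5 (0.573), the glycolipid transfer protein Gltp (0.568), the desmosomal cadherin Dsg1a (0.547), Ly6g6c (0.544), Lgals7 (0.528), Sbsn (0.491), Ly6d (0.491), Tmprss4 (0.483) and Lgals3 (0.470). The lowest were Ftl1 (-0.493), the basal keratins Krt15 (-0.488) and Krt5 (-0.439), S100a6 (-0.459) and Apoe (-0.421). Cells of a library share its depth and free RNA, so these values are descriptions.

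Other differentiation genes were read from lists beside the members. In suprabasal cells for AG_CPI against NO_AG, where 0.493% of all genes passed, 1 of 13 early suprabasal genes rose: Fabp5, from 11.4 and 16.6 per 10000 to 112 and 128 (log2 fold change 3.08, SE 0.562, limma adjusted p = 0.0489). None of 14 cornified envelope, 14 corneodesmosome and protease, 12 barrier lipid and 22 differentiation regulator genes passed there; their median log2 differences were 1.01, 0.22, -0.24 and -0.17, beside -0.11 over all genes. The smallest limma p of its list belonged to the cysteine protease inhibitor Csta1 (1.13, adjusted p = 0.205), the desmosomal cadherin Dsc1 (1.69, adjusted p = 0.125), the ceramidase Acer1 (-0.78, adjusted p = 0.442) and the nuclear receptor Rora (-1.42, adjusted p = 0.0797). Of 16 basal layer genes none passed either, Ccnd2 having the smallest p (-1.70, adjusted p = 0.0799). The 39 suprabasal genes called for AG_CPI against NO_AG became 5 with no filter on low values. For AG against NO_AG, no gene of these lists passed in suprabasal cells.

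Over all gated keratinocytes in AG_CPI against NO_AG, where 0.71% of all genes passed, 1 of 12 early suprabasal genes rose (Endou, log2 fold change 1.90, limma adjusted p = 0.0102), 1 of 12 cornified envelope genes (Csta1, 1.58, adjusted p = 0.0342), 1 of 15 corneodesmosome and protease genes (Dsc1, 1.71, adjusted p = 0.0396) and 1 of 22 differentiation regulators (Zfp750, a transcription factor of epidermal differentiation, 1.32, adjusted p = 0.0345). Of 17 basal layer genes 1 fell, the cyclin Ccnd2 (-1.54, adjusted p = 0.0386). None of 9 barrier lipid genes passed. The 59 genes called in this comparison became 4 with no filter on low values and 5 to 13 when a NO_AG or AG_CPI mouse was left out, but 146 with summed UMIs, 296 without AG 1, 330 without AG 2 and 339 with the 4 mice alone. In suprabasal cells 1 of 11 follicle genes and 3 of 8 stress genes (Krt16, Krt6a and Sprr1b) rose in the same comparison, beside 0.493% of all genes called there, while over all gated cells 1 of 16 follicle genes rose (Krt79) and 2 fell (Lgr5 and Lhx2). In suprabasal cells Krt79 rose from 5.45 and 7.32 to 51.7 and 66.8 per 10000 (limma adjusted p = 0.000242) and the stress keratin Krt16 from 0.399 and 0.209 to 23.5 and 16.6 (adjusted p = 0.0113). Summed stress keratinocyte genes there were 2.08 and 1.53 in NO_AG, 9.17 and 80.1 in the AG mice, and 70.5 and 74.5 in AG_CPI, and Krt77 was low in the 3 mice where this sum was high. Without the Krt17, Krt79 or Krt6a cells, which left 216 of 233 and 166 of 266 suprabasal cells in NO_AG, 108 of 175 in AG 1, and 13 of 39 and 17 of 65 in AG_CPI, and removed AG 2 from the fit (9 of 28 cells), Krt77 still differed by -6.17 between AG_CPI and NO_AG, with an adjusted p of 0.0811 by limma.

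Outside the gated keratinocytes, other leukocytes (191 to 597 per mouse) held up to 5.31 Krtdap, 3.95 Krt10 and 3.31 Krt77 UMIs per 10000. These highest levels were in AG 2 for Krtdap and in NO_AG 2 for the keratins. In NO_AG 2 the levels in other leukocytes were above those in low keratinocytes for all 3 genes. In endothelial cells (4 to 34 per mouse) Krt1, Krt77 and Calm5 had no UMI, and in fibroblasts (2 to 46 per mouse) Krt77 and Calm5 had none. T cells held 0.336 to 1.05 Krt1 and 0.256 to 1.58 Krt10 UMIs per 10000, against 52.2 to 137 for the pair in suprabasal cells.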

How the data were processed

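Per the labels' protocols, single skin cells went through the 5' chemistry of 10x Genomics, and the submitters' processing notes name Cell Ranger 3.1 and mm10. The deposited values are on a log10 scale, log10 of 1 plus UMIs scaled to 10000 per cell, as their spacing shows: 100% fell on whole UMIs within 0.1. Total UMIs per library ran from 5903724 to 24656382, and median UMIs per cell from 2527 to 4744.

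Cells needed 200 genes and at most 20% mitochondrial UMIs (51 failed), and 663 top-scoring cells by Scrublet (scanpy 1.11.5), 0.8% per 1000 cells, were removed as doublets. Means per mouse (at least 10 cells) were TMM-scaled, converted to log2 after a pseudocount of 0.1, and fitted for all 6 mice with limma-trend (limma 3.58.1, R 4.3.3), with group as the only term. Genes needed 10 UMIs and a mean of 0.1 per 10000 in 2 mice. A gene was called when its p, adjusted over all genes by Benjamini-Hochberg, was under 0.05. The fit was tested on simulated data. The plan tied the test to the deposited unit, which is log10, so no count model was used although whole UMIs could be recovered. The labels number the mice as biological replicates.

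The members and gene lists were chosen with earlier results of these data known. Named genes are the members, called list genes, up to 3 genes of a list with the smallest p, and the 10 most and 5 least like the members. The fit in Krt1/Krt10-low cells was added after values had been seen. Alternatives were other scaling, filters, pseudocounts, gates, depth, cell subsets and left-out mice. A list result that needs an item withheld for evaluation is not reported here.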

Additional observations from a re-analysis of the deposited data

How the results depend on the processing

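The Krt77 call in suprabasal cells (AG_CPI against NO_AG) kept its direction under every alternative run. It was lost without a filter on low values (-5.51, limma adjusted p = 0.292), with a pseudocount of 0.02 (-5.69, adjusted p = 0.0961), without the Krt17, Krt79 or Krt6a cells (-6.17, adjusted p = 0.0811) and without either AG_CPI mouse. The cause was not tested. With 2 mice per group and 28 to 65 suprabasal cells in AG 2 and AG_CPI, the depth behind low Krt77 and Calm5 is 1 to 30 UMIs per mouse. Across 1155 recomputed member differences 1015 kept their direction and side of the threshold, 94 changed sign (0 of them called, smallest adjusted p 0.116), 41 passed newly and 5 no longer passed.

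The replicate numbers pair nothing that the labels describe: same-numbered mice correlated in their deviations at 0.10 to 0.20 in gated, 0.049 to 0.12 in suprabasal and 0.061 to 0.18 in low cells, with 2 numbers per comparison. With the replicate block, genes called numbered 66 and 172 of 8310 in gated cells (AG and AG_CPI against NO_AG). They numbered 59, 17 and 169 of 7913 in suprabasal cells (AG against NO_AG, AG_CPI against AG, AG_CPI against NO_AG). In low cells they numbered 36 of 8400 (AG_CPI against NO_AG). Krt77 kept its suprabasal call for AG_CPI against NO_AG. Members that newly passed by limma in this comparison were Krt77 (adjusted p = 0.0495) and Krtdap (0.0262) in gated cells. Calm5 newly passed there in low cells (limma adjusted p = 0.0488) and in suprabasal cells (0.00316). For AG against NO_AG, Krt77 (limma adjusted p = 0.0248) and Calm5 (0.00445) newly passed in suprabasal cells. For AG_CPI against AG, Krt77 newly passed in suprabasal cells (limma adjusted p = 0.000561).

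The share past the gate differed between AG_CPI and NO_AG by 7.2 points with the gate at 100 and 4.2 without Krt17, Krt79 or Krt6a cells. Among cells that passed the Krt5 + Krt14 gate, the share also passing on Krt1 + Krt10 differed by 9.39 points between these groups. Between AG_CPI and AG the share past the gate differed by 4.59 points without Krt17, Krt79 or Krt6a cells. Leaving out each mouse gave -11.5 to 4.75 for AG against NO_AG, 8.42 to 24.7 for AG_CPI against AG and 10.8 to 15.6 for AG_CPI against NO_AG.

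Genes called (42, 0 and 59 in gated cells for AG against NO_AG, AG_CPI against AG and AG_CPI against NO_AG; 12, 1 and 39 in suprabasal; 38, 0 and 20 in low) depended on the setting. Leaving out each mouse gave 10 to 156, 0 to 4 and 5 to 330 in gated cells, 0 to 64, 0 to 2 and 7 to 59 in suprabasal cells, and 9 to 68, 0 to 2 and 3 to 86 in low cells. For AG against NO_AG, no filter gave 4, 0 and 6 in gated, suprabasal and low cells, summed UMIs 65, 22 and 64, and leaving out Krt17, Krt79 or Krt6a cells 25, 0 and 20. The 4 mice alone gave 1 in suprabasal cells, a gate of 100 gave 7 there, a gate of 25 gave 25 in low cells, and thinning to 1500 UMIs 16 there. For AG_CPI against AG in suprabasal cells, the count was 0 with no filter, a pseudocount of 0.02, summed UMIs, gates of 25 and 100, thinning, and without Krt17, Krt79 or Krt6a cells. For AG_CPI against NO_AG, no filter gave 4, 5 and 0, leaving out Krt17, Krt79 or Krt6a cells 37, 0 and 39, and summed UMIs 146 in gated and 92 in low cells. A pseudocount of 0.5 gave 29 and 13 in these, the 4 mice alone 339 and 82, and a gate of 25 gave 25 and 5. Thinning gave 30 in gated and 22 in suprabasal cells, and a pseudocount of 0.02 gave 22 in suprabasal cells.

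Sign changes follow as log2 differences; no difference was called under the setting that changed its sign. Pseudocount 0.02 gave the opposite sign for Calm5 AG_CPI against AG gated 0.30, Mt4 AG_CPI against NO_AG low -0.14. Summed UMIs gave the opposite sign for Krt1 AG against NO_AG gated -0.10, Krtdap AG against NO_AG suprabasal -0.18, Krt10 AG_CPI against AG suprabasal 0.026, Calm4 AG_CPI against AG suprabasal 0.023, Krt1 AG_CPI against AG low -0.11, Mt4 AG_CPI against NO_AG low -0.24. Gate at 100 gave the opposite sign for Krt1 AG against NO_AG gated -0.065, Calm5 AG_CPI against AG gated 0.13, Krt10 AG_CPI against AG suprabasal 0.084, Krt10 AG against NO_AG low -0.084, Mt4 AG_CPI against NO_AG low -0.12. Gate on Krt5 + Krt14 alone gave the opposite sign for Mt4 AG_CPI against NO_AG gated 0.97. Deposited scaling without TMM gave the opposite sign for Krt10 AG_CPI against AG suprabasal 0.043, Mt4 AG against NO_AG low -0.035, Mt4 AG_CPI against NO_AG low -0.048. Pseudocount 0.5 gave the opposite sign for Calm5 AG_CPI against AG suprabasal -0.24, Mt4 AG_CPI against AG suprabasal -0.0024, Mt4 AG_CPI against AG low 0.23. All deposited cells gave the opposite sign for Krt10 AG_CPI against AG suprabasal 0.0076, Mt4 AG against NO_AG low -0.017, Mt4 AG_CPI against AG low 0.0048, Mt4 AG_CPI against NO_AG low -0.012. Gate at 25 gave the opposite sign for Krtdap AG against NO_AG suprabasal -0.20, Calm4 AG against NO_AG suprabasal -0.099, Krt1 AG_CPI against AG suprabasal 0.34, Krt10 AG_CPI against AG suprabasal 0.51, Calm4 AG_CPI against AG suprabasal 0.42, Calm5 AG_CPI against AG suprabasal -0.097, Mt4 AG against NO_AG low -0.42, Krt1 AG_CPI against AG low -0.38, Calm4 AG_CPI against NO_AG low -0.11, Mt4 AG_CPI against NO_AG low -1.27. Without Krt17/Krt79/Krt6a cells gave the opposite sign for Krt10 AG against NO_AG suprabasal 0.55, Mt4 AG against NO_AG suprabasal 0.35, Krt1 AG_CPI against AG suprabasal 0.0061, Calm4 AG_CPI against AG suprabasal 0.13, Calm5 AG_CPI against AG suprabasal -2.16, Mt4 AG_CPI against AG suprabasal -1.25, Krt1 AG against NO_AG low -0.60, Krt10 AG against NO_AG low -0.68, Calm4 AG against NO_AG low -0.57, Krt1 AG_CPI against AG low -0.078, Krt10 AG_CPI against AG low -0.54, Krtdap AG_CPI against AG low 0.45, Krt1 AG_CPI against NO_AG low -0.68, Krt10 AG_CPI against NO_AG low -1.22, Calm4 AG_CPI against NO_AG low -0.98. Thinned to 1500 UMIs gave the opposite sign for Krtdap AG against NO_AG suprabasal -0.16, Krt10 AG_CPI against AG suprabasal 0.015, Calm5 AG_CPI against AG suprabasal -0.23, Krt77 AG against NO_AG low 0.036, Mt4 AG against NO_AG low -0.036, Mt4 AG_CPI against NO_AG low -0.14. The 4 mice of the 2 groups alone gave the opposite sign for Mt4 AG_CPI against AG low 0.021. When 1 mouse was left out, these differences changed sign, with their lowest and highest values: Krt1 AG against NO_AG gated -0.86 to 1.12, Calm4 AG against NO_AG gated -0.65 to 1.13, Calm5 AG_CPI against AG gated -1.31 to 1.18, Krt10 AG against NO_AG gated -2.29 to 0.82, Krt77 AG against NO_AG gated -2.98 to 0.31, Mt4 AG against NO_AG gated -2.05 to 0.44, Krt10 AG_CPI against AG gated -0.10 to 3.01, Calm4 AG_CPI against AG gated -0.052 to 1.73, Mt4 AG_CPI against AG gated -0.54 to 1.95, Mt4 AG_CPI against NO_AG gated -0.37 to 0.17, Krtdap AG against NO_AG suprabasal -0.0081 to 0.15, Krt10 AG_CPI against AG suprabasal -0.76 to 0.74, Calm4 AG_CPI against AG suprabasal -0.41 to 0.17, Krt10 AG against NO_AG suprabasal -1.10 to 0.40, Mt4 AG against NO_AG suprabasal -2.97 to 0.057, Calm5 AG_CPI against AG suprabasal -1.74 to 1.77, Mt4 AG_CPI against AG suprabasal -1.48 to 1.54, Krt10 AG against NO_AG low -0.15 to 0.33, Mt4 AG against NO_AG low -0.26 to 0.33, Mt4 AG_CPI against NO_AG low -1.77 to 1.83, Krt77 AG against NO_AG low -0.82 to 0.75, Mt4 AG_CPI against AG low -1.81 to 1.80, Krt1 AG_CPI against AG low -0.33 to 0.75, Calm5 AG_CPI against AG low -1.43 to 0.34, Krtdap AG_CPI against AG low -0.63 to 0.50. In some of these ranges the end of the unchanged sign was called without AG 1, a fit with 1 AG mouse. This held for Mt4 of AG against NO_AG in gated cells (-2.05) and in suprabasal cells (-2.97). It also held in gated cells for Krt10 of AG against NO_AG (-2.29) and of AG_CPI against AG (3.01). Krt1 and Krt10 helped to choose the cells, so their values here are descriptions.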
